A study of Mus musculus with 2 samples.

Results

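The peaks described here are the TCF12 binding sites of a mouse B-cell lymphoma line that lie far from every protein-coding gene's start. They were chosen from the authors' optimal peak list on mm10, taking chromosomes 1 to 19 and keeping each peak whose summit, its point of highest signal, was more than 100 kb from the nearest annotated protein-coding 5' end. They number 3745 of the 35369 autosomal peaks, which is 10.6% (95% Wilson interval 10.3% to 10.9%, which like all intervals here covers counting error only), and of 35848 peaks in all. The rule used position alone, so signal, sequence and replicate agreement are open to description. DNA bound by TCF12 was pulled down with an antibody and sequenced (ChIP-seq), using CH12.LX cells, an immortal line of strain B10.H-2aH-4bp/Wts, described in the labels as a B-cell lymphoma. There were 2 biological replicates in 1 group, with no treatment and no counterpart without the antibody's target, so no comparison between conditions exists. Both replicates came from the same line, and the spread between them is not a spread between animals.

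TCF12, also called HEB, belongs to the E proteins, basic helix-loop-helix factors that bind as dimers to the E-box CANNTG. In lymphocytes TCF12 acts beside the other E proteins, the products of TCF3 and TCF4, and all are held back by the ID proteins, which pair with them but cannot bind DNA. Much of the control of lymphocyte genes is known to pass through enhancers, short regulatory regions that can lie far from the gene they act on and reach it by folding of the chromosome. A peak's nearest 5' end is a landmark, and which gene a peak acts on was not measured.

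The sequences under the strongest far peaks show the DNA at their summits. They were read from the authors' mm9 list and the mm9 genome, since sequence and peaks must share a build, as 101 bp windows centred on the summit and given on the plus strand. Each lies outside every annotated exon. The first 4 are the strongest far mm9 peaks that hold CAGCTG or CACCTG, the main E-box forms, and capitals mark those sites.
Rcvrn: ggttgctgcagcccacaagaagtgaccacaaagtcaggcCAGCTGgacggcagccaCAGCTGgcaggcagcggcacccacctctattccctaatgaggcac
Tns1: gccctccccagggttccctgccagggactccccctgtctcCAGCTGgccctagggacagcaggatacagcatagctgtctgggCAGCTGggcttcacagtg
Gnaq: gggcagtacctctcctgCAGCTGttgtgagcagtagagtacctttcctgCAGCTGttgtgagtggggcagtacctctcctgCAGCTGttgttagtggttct
Gm10293: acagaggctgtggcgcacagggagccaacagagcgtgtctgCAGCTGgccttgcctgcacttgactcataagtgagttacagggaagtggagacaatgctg

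The window named for Rcvrn, the photoreceptor calcium sensor recoverin, is chr11:67402542-67402642 on mm9, 106.2 kb upstream of Rcvrn and in an intron of Gas7. It belongs to the strongest far mm9 peak, with a signal of 1296 in the caller's units, and its CAGCTG sites are centred 8.5 bp to either side of the summit. The window named for Tns1, which encodes tensin, is chr1:73871023-73871123 on mm9, 299.9 kb downstream of the start of Tns1. It lies outside protein-coding genes, in a peak of signal 717.9. Its CAGCTG sites are centred 7.5 and 35.5 bp from the summit. The Gnaq window, chr19:16326482-16326582 on mm9, lies in an intron of Gnaq, the gene of a G protein alpha subunit, 119.2 kb from its start, in a peak of signal 669.3. Its 3 CAGCTG sites sit in a repeated unit, and the middle one is centred 1.5 bp from the summit. The window named for Gm10293 is chr3:52247953-52248053 on mm9, 168.7 kb from the start of that gene model. It is 175.7 kb downstream of the start of Foxo1, in a peak of signal 638.7. Its CAGCTG is centred 6.5 bp from the summit.

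The next pair are the strongest far mm9 peaks that hold neither main form. Capitals mark every other motif of the search that was found there.
Lphn2: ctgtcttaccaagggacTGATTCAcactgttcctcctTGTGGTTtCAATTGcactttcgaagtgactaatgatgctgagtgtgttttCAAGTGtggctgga
Dusp4: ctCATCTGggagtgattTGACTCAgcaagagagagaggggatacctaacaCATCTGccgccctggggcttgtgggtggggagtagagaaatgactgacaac

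The window named for Lphn2, the older symbol of the adhesion receptor gene Adgrl2, is chr3:148358596-148358696 on mm9, 293.6 kb downstream of the gene's start and outside protein-coding genes. Its peak ranks 2 among the far mm9 peaks with a signal of 1174, and the window holds CAATTG centred 2.5 bp from the summit, CAAGTG, the RUNX motif TGTGGTT and the AP-1 motif TGATTCA. The Dusp4 window, chr8:35734927-35735027 on mm9, is 135.4 kb upstream of Dusp4, which encodes a phosphatase of MAP kinases, in a peak of signal 705.1. It holds CATCTG centred 2.5 bp from the summit, a further CATCTG and the AP-1 motif TGACTCA. These windows show strong far peaks over CAGCTG and also over other E-box forms without it.

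Among 2235 far peaks of the mm9 list, 965 held CAGCTG or CACCTG on either strand with no base of it over 50 bp from the summit, which is 43.2% (95% Wilson interval 41.1% to 45.2%). In windows centred 300 bp to either side of the same summits the share was 10.8% (9.91% to 11.7%). The difference was 32.4 percentage points (95% Newcombe interval 30.1 to 34.6), and the summit share was 4.00 times the flank share. Over all 23294 autosomal mm9 peaks the summit share was 31.1%. CACCTG was the more frequent form at far summits, in 27.6% against 6.33% of flank windows, and CAGCTG was in 20.4% against 4.81%. Both forms together stood in 106 windows (4.74%). Counting every CAGCTG and CACCTG site of the far peaks, those centred less than 10 bp from the summit came to 308, or 6.89 sites per kb of sequence, against 2.81 at 50 to 100 bp and 1.17 at 200 to 400 bp. With the adjoining bases counted, ACAGCTGC (GCAGCTGT on the other strand) was the most frequent of the CAGCTG sites at far summits, 122 of 556 sites or 21.9% (18.7% to 25.6%), against 32 of 223 flank sites or 14.3% (10.3% to 19.6%). These intervals overlap, and an interval of the difference was not computed. The count pools both orientations of this form, while a palindrome such as GCAGCTGC (60 sites) reads the same on both strands.

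The far share of main E-boxes was higher than the 40.5% (39.5% to 41.5%) of the 8865 mm9 peaks at 10 to 100 kb, by 2.70 points (0.420 to 5.004). This small difference was lost in windows of 25 bp (0.360 points, -1.62 to 2.41) and of 100 bp (0.465 points, -1.85 to 2.76) on each side of the summit. In each of 5 groups of peaks of like signal the far share was the higher of the pair, by 1.51 to 3.98 points, and each of those intervals held 0. Base composition also moved with distance: the median GC content of the windows was 49.5% in far peaks and 52.5% at 10 to 100 kb, and 28.9% against 22.1% of windows held no CpG. The part of base composition in the E-box difference was not tested. Peaks within 1 kb of a 5' end, with a median GC content of 65.3%, had a main E-box share of 14.5%. Within the far peaks the share was 43.1% inside protein-coding genes and 43.3% outside, a difference of -0.177 points (-4.30 to 3.96).

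**Figure D1:**
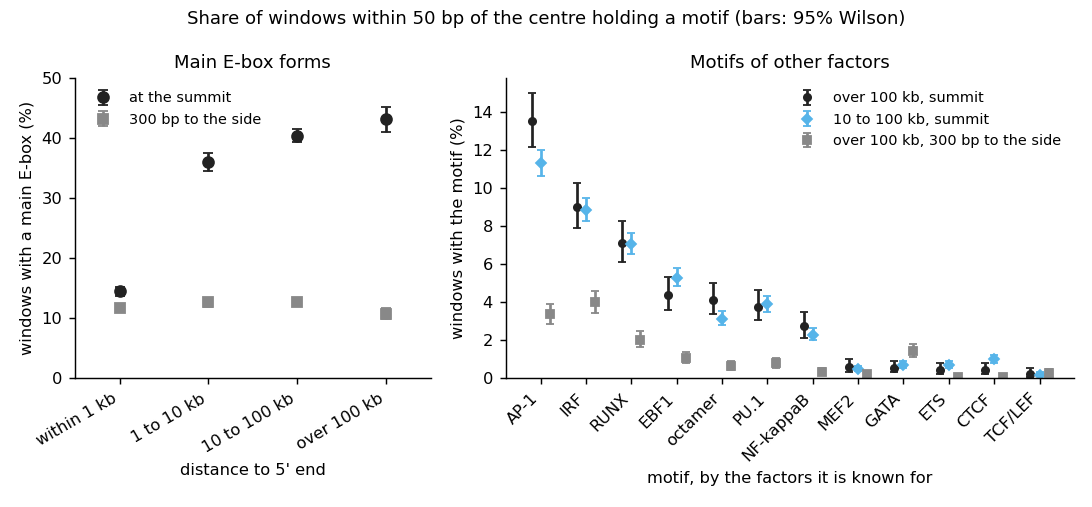
Left: percent of 101 bp windows on mm9 that hold a main E-box form, at the summit (circles) and 300 bp to the side (squares), by distance from the nearest protein-coding 5' end. Right: percent of windows that hold each motif of another factor, for far summits, summits at 10 to 100 kb and far flanks; bars are 95% Wilson intervals. The far summits reach 43.2% with a main E-box against 10.8% in their flanks, and the AP-1 motif leads the others with 13.5%.

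In all, 23 motifs were searched on both strands, and a window may hold several. The E-box forms were the 10 that CANNTG can take when a form and its reverse complement count as 1, and the other motifs are spelled out beside their values. The PU.1 and ETS motifs share the letters GGAAGT but differ in the letters before them, so the same GGAAGT run cannot count under both. At far summits 16 motifs were above their flanks, 2 below, and the interval of 5 held 0, with intervals not adjusted over the 23. A match is a run of letters and not a measured site of the factor.

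The third E-box form, CATCTG, was in 17.0% of far summit windows against 7.72% of flanks (9.33 points, 7.62 to 11.1). The AP-1 motif TGANTCA, bound by FOS, JUN and BATF proteins, was in 302 windows or 13.5% (12.2% to 14.99%), against 3.36% of flanks and 7.66% of all mm9 summits. The IRF motif GAANNGAAA stood in 8.99% against 3.98% of flanks, and the RUNX motif TGTGGTT in 7.11% against 2.04%. Motifs of factors known for B-cell identity and activation followed: EBF1 (CCCNNGGGA) 4.38% against 1.05%, the octamer ATTTGCAT of OCT1 and OCT2 4.12% against 0.649%, PU.1 (GAGGAAGT) 3.76% against 0.783% and NF-kappaB (GGGANTTCC) 2.73% against 0.336%. Over all mm9 summits these 4 stood in 4.40%, 2.26%, 3.14% and 2.00%. Rarer ones were MEF2 (CTAAAAATA) at 0.582%, ETS (CCGGAAGT) at 0.447% and TCF/LEF (CTTTGATC) at 0.224% of far summits. The GATA motif AGATAAG was below its flanks, 0.537% against 1.43%, as was CAATTG, 1.03% against 1.72%. The control palindrome CGATCG was found in 2 of 2235 windows.

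Set against peaks at 10 to 100 kb, the interval left out 0 for 5 motifs. AP-1 was 2.23 points higher at far summits (0.718 to 3.85), the octamer 0.980 points (0.140 to 1.95), CAACTG 1.29 points (0.211 to 2.48) and CATATG 0.814 points (0.187 to 1.58). The CTCF motif CNAGGGGGC was the one below, by -0.557 points (-0.864 to -0.138), in 10 far windows or 0.447%. Of the 1270 far peaks without a main E-box, 549 (43.2%) held at least 1 of the 12 motifs of other factors, and of the 965 with one, 352 (36.5%) did. Far peaks with a main E-box had a median signal of 56.8 and those without one of 48.7 in the mm9 list.

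On mm10 the median signal of far peaks was close to that of nearer distal ones. Signal is the peak caller's own value, and it is compared within a list. The median was 33.5 (interquartile range 23.0 to 53.8) for far peaks, 32.4 at 10 to 100 kb and 43.9 within 1 kb of a 5' end. The ratio of the far to the 10 to 100 kb median, 1.03, turned to 0.996 and 0.998 with replicate 2 or replicate 1 alone, so no direction can be given. An irreproducible discovery rate (IDR) of 0.01 or less, the authors' measure of rank agreement between replicates, was reached by 2390 far peaks (63.8%), against 67.8% of all autosomal optimal peaks and 63.1% at 10 to 100 kb. The last difference was 0.722 points (-1.02 to 2.45). Far peaks made up 15 of the 100 strongest autosomal optimal peaks (15%), 70 of the 500 strongest (14%) and 488 of the 5000 strongest (9.76%). Their share over all autosomal optimal peaks was 10.6%. In group 1 of 5 signal groups, the strongest, it was 9.54% (8.88% to 10.25%). In groups 3 and 4 it was 11.55% (10.83% to 12.32%) and 11.61% (10.88% to 12.37%), and in group 5, the weakest, 10.45%. The share thus did not move in a single direction with signal.

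Replicate signals at far peaks were unequal in level. A peak was found in both replicates' relaxed lists in 3613 cases (96.5%), in replicate 1 alone in 114 and in replicate 2 alone in 18. Replicate 1 had the higher value in 87.4% of those found in both, with medians of 23.1 and 13.0 and a median ratio of 1.74. At 10 to 100 kb that ratio was 1.73, and 96.7% of peaks were found in both replicates. Across far peaks the replicates' values had a Spearman rho of 0.663 over 3613 peaks, which share the same libraries. When each replicate's 35848 strongest peaks were taken alone, 3856 (10.9%) and 3721 (10.5%) autosomal ones were far. Of these, 67.0% and 68.7% overlapped a peak of the other replicate, close to the 67.6% and 68.8% of peaks at 10 to 100 kb. The pooled relaxed list holds 258097 weak autosomal peaks with no optimal peak over them, and 23.0% of these were far, more than in the optimal list.

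The 15 strongest far peaks reached signals of 286.0 to 452.8, and replicate 1 was above replicate 2 in 14 of them. The strongest of all was at chr11:67588894-67589325 on mm10, inside Gas7 and 106.2 kb upstream of Rcvrn, with 452.8 in the pooled list, 243.0 in replicate 1 and 205.8 in replicate 2. A peak of nearly the same signal, 452.1, with 259.9 and 199.9 in the replicates, lay outside genes at chr3:148695519-148695854, 293.4 kb downstream of the start of Adgrl2. Both values stood well above the next, 353.6.

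Several of these peaks had a regulator of lymphocyte development as the nearest gene. The peak 175.7 kb downstream of the start of Foxo1, a forkhead factor of B-cell maturation, at chr3:52443847-52444272, had 322.8, with 205.5 in replicate 1 and 122.3 in replicate 2. The peak 113.0 kb upstream of Id2, which encodes an inhibitor of E proteins, at chr12:25208927-25209277, had 322.0, with 182.2 and 141.0. The peak 202.8 kb upstream of Runx1, a Runt-domain factor of blood development, at chr16:93028742-93028983, had 289.4, with 176.1 and 111.3. All 3 lay outside protein-coding genes and were strong in both replicates. Upstream of Meis1, a homeobox gene active in blood progenitors, a peak 327.0 kb from the start at chr11:19346478-19346811 had 326.5, with 181.8 and 142.4. The peak 111.6 kb upstream of Egr3, a zinc finger gene induced by antigen receptor signals, was inside Pebp4 at chr14:69965582-69965860 and had 297.9, with 177.7 and 120.2.

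The others of the 15 were nearest to Rufy4 (346.0), Dusp4 (336.9), Nuak1, an AMPK-related kinase gene (327.7), and Gnaq (315.5). The peak nearest to Gins2, a DNA replication gene, had 287.8 and lay inside Gse1. The one nearest to Edn2, an endothelin gene, had 286.0 and lay inside Hivep3. The remaining ones flanked or sat in the Igl locus, which encodes the lambda light chain of antibodies. One between Hira and Olfr164, at chr16:19179274-19179584, had 353.6, with 189.2 and 162.4 in the replicates. The other, 150.5 kb from the start of Hira and before the first annotated segment of the locus, had 311.0, with 159.2 and 159.6. It is the one of the 15 in which replicate 2 was not below replicate 1. In all, 5 of the 15 were inside a protein-coding gene.

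**Figure D2:**
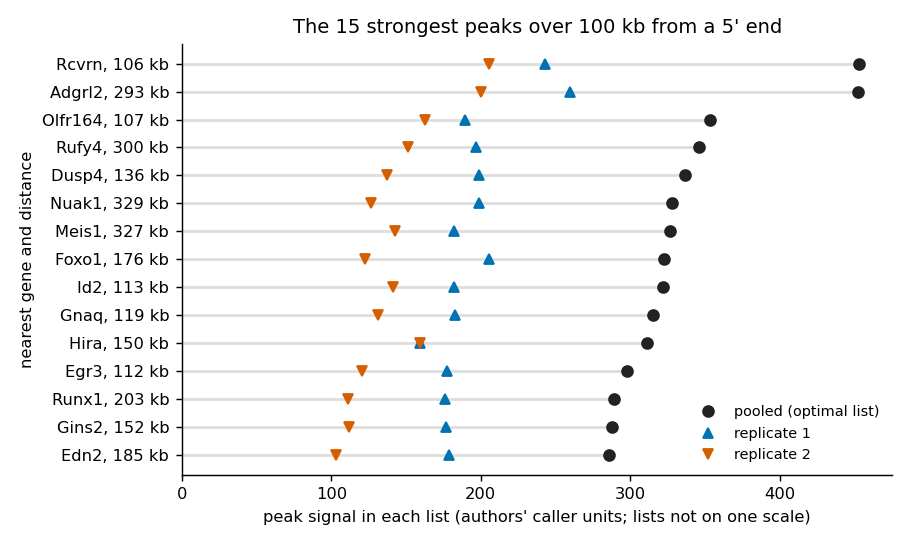
Signal of the 15 strongest far peaks in the authors' optimal list (circles) and of the strongest overlapping peak in the relaxed list of replicate 1 (up triangles) and replicate 2 (down triangles), by nearest gene and distance in kb. Replicate 1 runs from 159.2 to 259.9 and replicate 2 from 102.8 to 205.8.

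Antigen receptor segments are not protein-coding entries of the gene table, so peaks inside those loci count as far. The 6 loci held 59 optimal peaks, of which 43 were far. The kappa light chain locus Igk held 23 far peaks of 25, the strongest with 116.1. The Igl locus held 17 far peaks of 23. The heavy chain locus Igh held 1 far peak of 7, and the T-cell receptor loci Trb and Trg held no optimal peak, while Tra held 4, of which 2 were far. Without the receptor loci 3702 far peaks remained.

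Far peaks were sparse for the length of genome they come from. The territory more than 100 kb from a 5' end, measured between the first and last summits of the pooled relaxed list on each chromosome, was 1034 Mb or 43.2% of 2395 Mb. It held 3.62 peaks per Mb, against 13.6 at 10 to 100 kb, 24.6 at 1 to 10 kb and 268.1 within 1 kb. The ratio of the far density to that at 10 to 100 kb was 0.266 (95% Poisson interval 0.256 to 0.276), and 0.266 and 0.270 with replicate 2 or replicate 1 alone. The decline went on beyond the limit: 6.70 peaks per Mb at 100 to 200 kb, 4.09 at 200 to 300 kb, 2.14 at 300 to 500 kb, 0.864 at 500 to 1000 kb and 0.381 further out. The median distance of a far peak was 172.4 kb (interquartile range 127.3 to 253.3 kb), and 206 (5.50%) were more than 500 kb away.

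**Figure D3:**
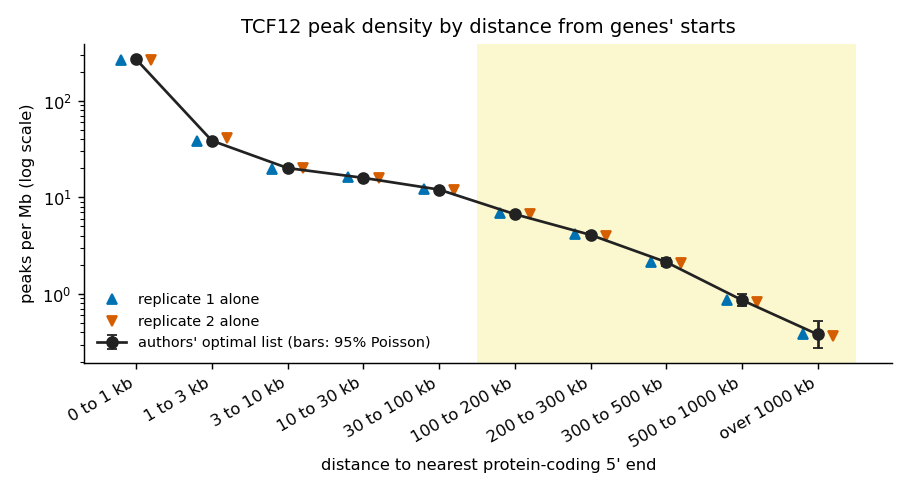
Autosomal peaks per Mb of genome (log scale) by distance from the nearest protein-coding 5' end in kb, for the authors' optimal list with 95% Poisson bars and for an equal number of the strongest peaks from either replicate alone; the shaded bins are over 100 kb. Within them the density falls from 6.70 to 0.381 peaks per Mb, and the replicates follow the same course.

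The limit cuts a continuous range. Just inside it lay peaks 100004 bp from the start of Pgrmc2 (signal 18.2) and 100021 bp from that of Ebf1 (6.002). Just outside lay peaks 100000 bp from the start of Ets1 (22.4), 99985 bp from that of Ninj2 (56.9) and 99947 bp from that of Prkcb (54.95). The farthest 4 were upstream of Celf4, an RNA-binding protein gene of neurons, at 1763 to 1799 kb with signals of 12.9 to 49.1. The farthest pair of those overlap each other and the same replicate peaks. The fifth was 1613 kb from the start of Nlgn1, inside Naaladl2, with 93.0, and with 63.0 and 30.7 in the replicates. On its other side the nearest start used was that of Tbl1xr1, 2643 kb away, so no nearer start of Naaladl2 itself was counted. Genes that received no strand supply no start. A start of Naaladl2 would stand at an end of the span that holds this summit, yet the nearest starts on both sides were those of Tbl1xr1 and Nlgn1. The distance of this peak and its place among the farthest thus rest on starts without that of Naaladl2.

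Being far from a start did not mean being outside genes. Inside a protein-coding gene lay 1659 far peaks, 44.3% (42.7% to 45.9%), while 27.9% of the far territory is inside such genes. At 10 to 100 kb the share of peaks was 54.3%, a difference of -10.0 points (-11.8 to -8.22). The spans of long non-coding RNA (lncRNA) genes held 631 far peaks, or 16.8% against 9.12% of the far territory, and 3.24 points more (1.94 to 4.60) than at 10 to 100 kb. The remaining 1584 (42.3%) were outside both kinds. Of the far peaks inside a protein-coding gene, 728 were nearer to the start of another gene. A further RefSeq start of a protein-coding gene lay within 100 kb of 498 far peaks (13.3%) and within 1 kb of 28, so these are far from the gene's outer 5' end and not from every annotated start.

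Foxp1, which encodes a forkhead repressor that acts in B-cell development, held the most, 50 far peaks inside its span of 597.4 kb. Zbtb20, a zinc finger repressor, had 36, Hivep3 had 34, and the protein kinase C genes Prkca and Prkce had 27 and 26. Msi2, an RNA-binding protein gene, also had 26, Gse1 had 23, and Tcf4, which encodes another E protein, had 22. A far peak was found inside 476 protein-coding genes, of which 100 held 5 or more.

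Far summits came in groups. With summits no more than 12 kb apart linked and at least 4 required, 178 groups held 1118 far peaks, 29.9% (28.4% to 31.3%), and at 10 to 100 kb 34.2% were grouped. The far share was 18.6% with a linking distance of 5 kb and 21.1% among peaks with an IDR of 0.01 or less. Some neighbours overlap: with overlapping peaks merged 3455 far peaks remained, of which 25.6% were grouped. Grouped far peaks had a median signal of 35.7 and ungrouped ones of 32.8.

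The largest group held 21 peaks over 51.4 kb at chr11:117308646-117360050, within Septin9, a cytoskeletal GTPase gene, 109.0 kb or more from its start. Its strongest peak had 244.1, with 136.2 in replicate 1 and 114.6 in replicate 2, and 20 of the 21 were found in both replicates. Within Msi2, 19 peaks spread over 72.4 kb at chr11:88542516-88614881, with a strongest signal of 161.7. Within Hivep3, 18 peaks stood over 47.3 kb at chr4:120011959-120059255, nearest to the start of Edn2, with a strongest signal of 145.7. The most compact of the 5 had 17 peaks over 34.1 kb at chr15:62240230-62274299, 254.9 kb or more beyond the start of Myc, the proto-oncogene of cell growth. Its strongest peak, inside the lncRNA gene Pvt1, had 251.5, with 165.8 and 99.0 in the replicates. Of the 17 peaks, 16 were found in both replicates, and not all need lie in Pvt1. The fifth lay within Foxp1, 458.3 kb or more from its start, with 17 peaks over 56.7 kb at chr6:99007698-99064397, a strongest signal of 150.0, and all 17 found in both replicates.

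**Figure D4:**
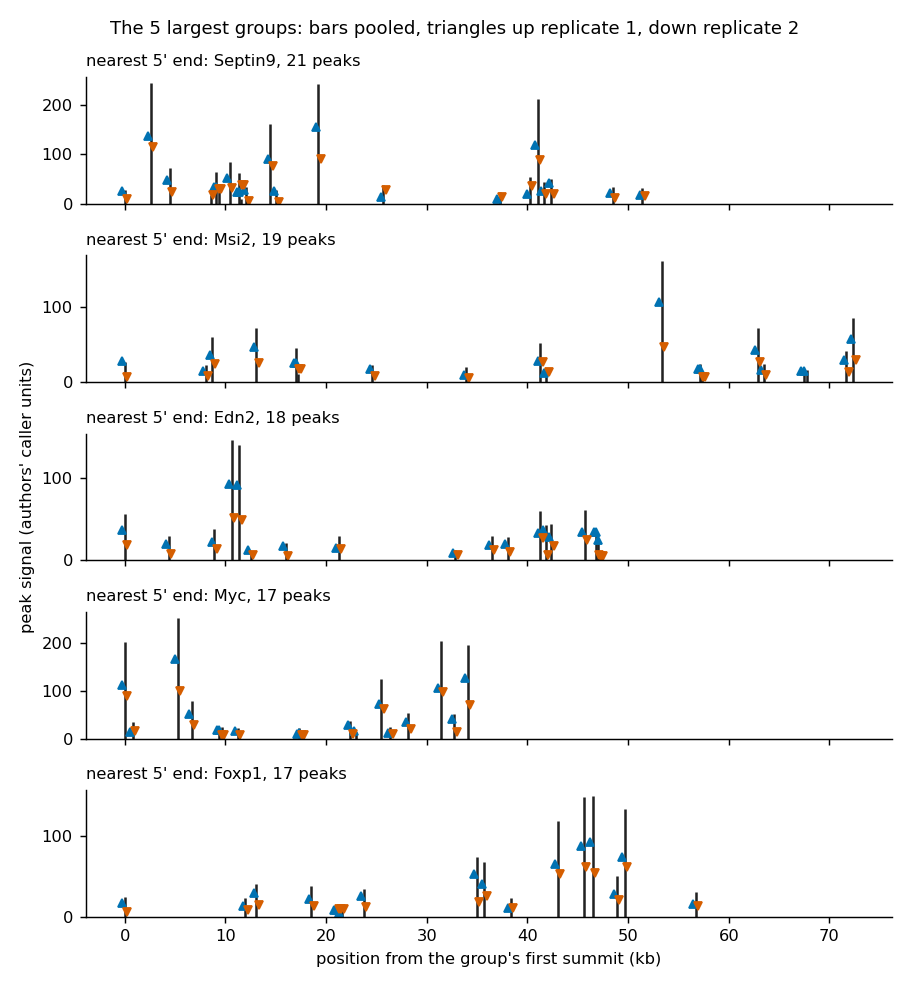
Signal of each far peak in the 5 largest groups against its position in kb from the group's first summit; bars are the authors' optimal list, up triangles replicate 1 and down triangles replicate 2. Each group mixes a few strong peaks, up to 251.5 in the group nearest to Myc, with many of low signal.

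By nearest 5' end, the far peaks belonged to 1144 genes, of which 475 had 1 and 65 had 10 or more, these 65 taking 1086 of the peaks. Myc had the most, 63, from 102.2 to 838.5 kb away, with 68 and 62 in replicates 1 and 2 alone. Foxp1 followed with 50, with 53 and 41 in the replicates. Tigit, an immune receptor gene, had 34 and Edn2 31. The strongest of those nearest to Tigit (228.6) lay inside the neighbouring Zbtb20, and those nearest to Edn2 included the Hivep3 group. Next came Septin9 and Sgip1 with 27 each, Zfp36l1, whose protein promotes the decay of mRNAs, with 23, Prkca with 22, and Msi2 with 21. Each of these genes had 14 or more in each replicate alone.

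Lists of genes, drawn up with earlier results of these data known, were then read against the same territory. A gene was counted where some genome more than 100 kb away has it as the nearest start, which holds for 4042 genes, and 1144 of these (28.3%) had a far peak. Of 48 transcription factor and regulator genes of B cells and lymphocytes, 30 had such territory and 26 of the 30 had a far peak, which is 86.7% (70.3% to 94.7%), with a median of 4.5 against 0 over all genes. Their 12.8 Mb of territory held 284 far peaks, or 22.1 per Mb, against 3.62 over all genes. In both replicates alone 25 of the 30 had one. Those without were Nfkb1, Myb, Satb1 and Aff3, of which Nfkb1 and Myb have 0.00318 and 0.00438 Mb of territory.

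The strongest far peak of 16 of these genes reached a signal of 100 or more. Besides Foxo1, Id2, Runx1 and Myc, the 8 strongest included Nfatc1, a calcium-dependent factor of antigen receptor signalling, with 240.7, and 150.2 and 88.2 in the replicates, inside the gene. Bcl6, the germinal centre repressor, had 5 far peaks upstream, the strongest 176.8 kb away with 237.0, and 153.2 and 87.1 in the replicates. Zeb2, a zinc finger repressor, had 11, the strongest 1254 kb upstream with 212.4, and 137.0 and 76.8. The strongest of Zfp36l1, inside the neighbouring Rad51b and 272.4 kb away, had 201.2, with 134.0 and 67.8. Each of these was high in both replicates, and replicate 1 was higher in each.

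A further 4 genes are given for their roles and were chosen after their values were seen. Ebf1, the early B-cell factor, had 14 far peaks, the strongest 147.2 kb into its span with 139.8, and 93.0 and 48.9 in the replicates. Pax5, the factor of B-cell identity, had 6, the strongest with 70.0. By nearest start Tcf4 had 20, the strongest 132.4 kb from its start with 96.7. The Tcf4 span also held a stronger far peak, with 158.9, that was nearer to the start of another gene. Tcf12 itself had 1, 135.7 kb into its own span, with 38.2, and 27.8 and 11.4 in the replicates.

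Of 52 surface and signalling genes of B cells, 18 had such territory and 13 of them a far peak, which is 72.2% (49.1% to 87.5%), with 70 peaks or 24.2 per Mb. Cxcr4, a chemokine receptor gene, had the strongest, 194.7 kb upstream with 176.5, and 113.4 and 65.4 in the replicates. Prkcb, a kinase of B-cell receptor signalling, had 151.6, and Ptprc, which encodes CD45, had 145.7, 252.8 kb from its start. The regulators of cell death Bcl2l11 and Bcl2 had 11 and 12 far peaks, the strongest with 128.6 and 110.2. Ccnd2, a cyclin gene, had 8 with a strongest of 110.7, S1pr1, a lipid receptor of lymphocyte exit, had 94.5, and Dusp6 had 73.3.

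Lists of genes of other tissues were read in the same way. All 40 neuronal adhesion and synapse genes had such territory, 69.4 Mb in all, and 7 (17.5%, 8.74% to 32.0%) had a far peak, with 13 peaks or 0.187 per Mb. The strongest of those lay upstream of Pcdh9 with 262.2, inside Nrxn3 with 203.4, and nearest to Nlgn1 with 93.0. The last is the peak inside Naaladl2, for which no nearer start of Naaladl2 was counted. The others were nearest to Grik2 (64.4), Dlgap2 (43.9), Pcdh17 (38.2) and Robo1 (23.0). Of 40 developmental transcription factors of other tissues, 32 had such territory and 11 (34.4%, 20.4% to 51.7%) a far peak, with 26 peaks or 1.81 per Mb. The share of all genes, 28.3%, lies within that interval. Among them were peaks near Sox5 (106.1), Pou3f2 (99.6), Gata6 (98.2), Isl1 (60.2), Irx1 (59.8) and Sox6 (49.4). Single strong peaks thus also occurred beside genes of other tissues. The lists' territory lies at different distances, so densities were also read within bins of distance. At 100 to 200 kb all genes had 6.69 far peaks per Mb, the transcription factors of B cells and lymphocytes 33.7 (115 peaks) and the B-cell surface and signalling genes 36.3 (53 peaks). In that bin the neuronal genes had 0.552 per Mb (4 peaks) and the developmental factors 2.70 (11 peaks). Beyond 500 kb the developmental factors had 8 peaks or 2.06 per Mb, against 0.711 over all genes, so their density was not lower at every distance. Expression was not analysed here, and its relation to these counts was not tested.

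**Figure D5:**
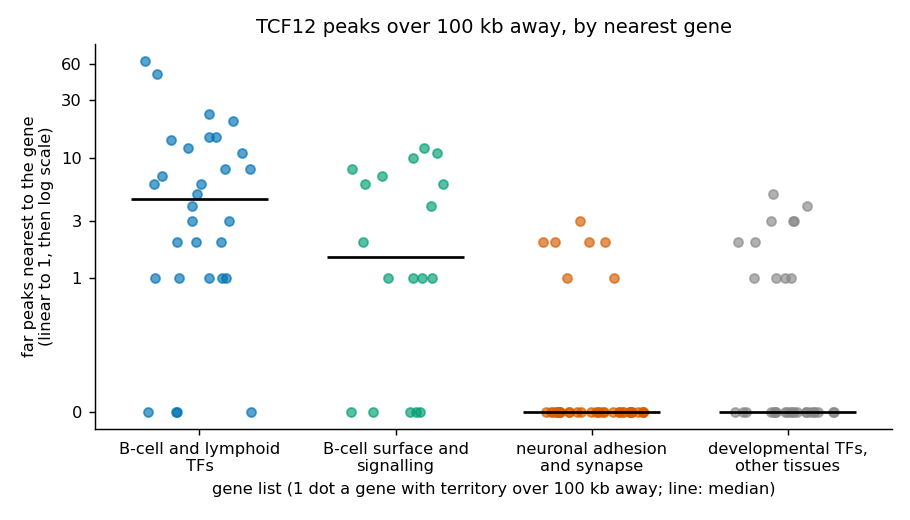
Far peaks nearest to each gene (1 dot a gene with territory over 100 kb away, axis linear to 1 and log above) in 4 gene lists, with the list's median as a line. The medians are 4.5 for B-cell and lymphoid regulators, 1.5 for B-cell surface and signalling genes and 0 for both lists of other tissues.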

How the data were processed

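TCF12 ChIP-seq peaks from 2 replicates of CH12.LX were analysed. Per the deposited file descriptions, the authors called relaxed lists for each replicate and for both pooled, with a control, and derived the optimal and conservative lists on mm10 from these. The mm9 list came from both replicates' alignments. Aligner and peak caller: not given in the sources used here. The signal and the summit offset (another number, in bp from the peak's start) are the authors' caller's own deposited values, and the score is the deposited scaled IDR score, with 830 or more standing for an IDR of at most 0.01. The depth of sequencing is unknown.

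The members and lists were chosen with earlier results of these data known. The mm10 genes were those of a RefSeq table (GRCm38.p6), which gives spans without strand, so strand came from RefSeq start positions by gene ID and otherwise from GENCODE vM1 by symbol. Of 20560 autosomal protein-coding genes, 20353 (99.0%) received a strand. The 105 genes with scaffold coordinates were left out. Distances on mm9 used GENCODE vM1, whose 21418 5' ends differ from the mm10 set, so a nearest gene can differ between builds. No coordinate was converted. Peaks overlapped when they shared 1 bp, and a replicate's value is its strongest overlapping relaxed peak, whose scale differs from the pooled one. Intervals are at the 95% level (Wilson for shares, Newcombe for differences, Poisson for densities). They cover counting error only and treat neighbouring peaks as independent, and likewise the summit and flank windows of a peak. A difference was called where its interval left out 0.

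The regions named are the 15 strongest, 5 largest groups, 5 farthest and 3 on each side of the limit, and the genes named are their nearest ones, the 10 with most far peaks and up to 8 of each list by strongest far peak. The 4 genes named for their roles stand outside this rule, and a few items that it names are not reported here. Alternatives were other peak lists, each replicate alone, other gene starts, limits of 50 and 200 kb, merged peaks, linking distances of 5 and 25 kb, and other motif windows. Python 3.11.15, numpy 2.4.6 and pandas 2.3.3 were used, and the code was tested on simulated data.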

Additional observations from a re-analysis of the deposited data

How the results depend on the processing

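The E-box share of far summits stayed above that of their flanks under all 6 alternatives run, by 20.1 to 38.7 points. Its excess over peaks at 10 to 100 kb kept its sign and its interval held 0 with windows of 25 bp (0.360 points), 100 bp (0.465 points) and a limit of 200 kb (1.82 points). The B-cell regulator genes with a far peak numbered 26 with either replicate alone, 23 to 35 under the other alternatives and 15 beyond 200 kb, where fewer genes have territory. For the other 5 results a value is given where it moved by more than 1 SD of the values of the 2 replicates alone, an SD that is small. That held for 43 of 57 settings.

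The far share of peaks was 10.5% to 10.9% with each replicate alone. It was 9.96% at an IDR of 0.01, 11.0% with overlaps merged, 21.6% for over 50 kb and 4.03% for over 200 kb. The density ratio was 0.266 to 0.270 with each replicate alone, 0.269 at an IDR of 0.01, 0.270 merged, 0.367 for over 50 kb and 0.175 for over 200 kb. The grouped share was 27.0% to 28.1% with each replicate alone, 21.1% at an IDR of 0.01, 25.6% merged, 32.2% and 24.96% for over 50 and 200 kb, and 18.6% and 41.9% with links of 5 and 25 kb. The median signal ratio was 0.996 to 0.998 with each replicate alone, 1.01 at an IDR of 0.01, 1.03 in the conservative list, 1.03 with both ends of strandless genes, 1.02 and 1.03 for over 50 and 200 kb, and 1.02 merged. The share inside genes was 44.2% to 44.5% with each replicate alone, 43.9% at an IDR of 0.01, 44.0% in the conservative list, and 49.0% and 36.2% for over 50 and 200 kb.

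A further 3 alternatives were chosen after seeing the data. With all RefSeq starts of protein-coding genes 3247 far peaks remained (share 9.18%, density ratio 0.254, grouped 27.9%, signal ratio 1.03, inside genes 37.8%). With strand by symbol only, which drops genes, there were 4384 (share 12.4%, grouped 28.6%, signal ratio 1.02, inside genes 46.1%). Without the antigen receptor loci the density ratio was 0.263, the signal ratio 1.03 and the share inside genes 44.8%. The cause of these shifts was not tested beyond what each alternative changes by construction. The planned restriction to windows without masked repeats was not run, since the genome used is not masked. No pairing of samples was possible because there was 1 group. Summit and flank windows of the same peaks were compared as independent shares, so the intervals of those differences ignore that pairing. Sequencing depth is unknown, which limits statements on weak peaks.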

Other observations

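Some far peaks lay beside microRNA genes, which are not protein-coding entries. Of 919 autosomal hairpins in the RefSeq table, 25 were within 10 kb of a far summit, with hairpins of the same cluster counted separately. Of the 3745 far summits, 43 were within 10 kb of a hairpin. No such count was made for peaks nearer to a start, so closeness to microRNA genes is not shown to be particular to far peaks. The strongest of the 43 lay beside Mir7216 (112.3), Mir193a and Mir365-2 (109.2) and Mir6363 (96.7). Those described next are weaker examples with roles known in lymphocytes, and a preference for such microRNAs was not tested. Beside the cluster of Mir182, Mir96 and Mir183, microRNAs known from sensory cells and activated lymphocytes, the strongest far peak lay at chr6:30162082-30162465 with a signal of 77.4, and 47.9 and 28.7 in the replicates, and it was 3.64 kb from Mir182. A weaker one with 47.4, and 37.8 and 5.20 in the replicates, was 0.925 kb from Mir96. The nearest protein-coding start to both was that of Nrf1, 114.3 and 120.5 kb away. A peak 0.992 kb from Mir148a, a microRNA known in B cells, had 55.4, with 51.4 and 14.6 in the replicates.

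Far peaks were unevenly spread over chromosomes. Their density in far territory was 6.57 per Mb on chromosome 11 and 5.86 on chromosome 16, and 1.97 on chromosome 7 and 2.13 on chromosome 14. The order was another by share of a chromosome's optimal peaks. Chromosome 11 held the most optimal peaks, 3952, and 6.40% of them were far, against 16.3% on chromosome 16. The highest share was 17.8% on chromosome 18, and chromosomes 7 and 14 had 4% and 10.9%. The RefSeq start positions that gave strand by gene ID held none on chromosome 18 and were partial on chromosomes 8 and 15. On chromosome 18 strand thus came from GENCODE vM1 alone, and the effect on its share was not tested. Chromosome 11 had 272 and 260 far peaks in replicates 1 and 2 alone, and chromosome 7 had 101 and 83.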
